A study of Mus musculus with 1 sample.

Results

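The cells described here were peritubular myoid cells, the flat contractile cells that wrap the seminiferous tubule, from the testes of wild type mice at postnatal day 8 (PD8). They were chosen by transcripts of smooth muscle. A cell was taken as myoid when its counts of Acta2, Myl9 and Tagln added up to at least 5 and to more than each of the matching sums for stromal cells (Dcn, Col1a1 and Col3a1), Sertoli cells (Clu, Inha, Defb19 and Rhox8) and macrophages (Lyz2, C1qa and Fcer1g). Barcodes with fewer than 500 detected genes or with 10% or more of their counts from mitochondrial genes were left out beforehand, and cells in which Dazl, Ddx4, Mael, Zbtb16 and Sohlh1 reached 4 or more per 10000 counts were set apart as germ cells. By this rule 106 of the 970 barcodes were myoid, which was 17.8% of the 597 somatic cells kept (95% Clopper-Pearson interval 14.8 to 21.1) and 11.5% of the 924 kept cells overall (9.49 to 13.7).

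The preparation was made from C57BL/6 mice of wild type genotype, for which the labels name no treatment. Testis cells were enriched for spermatogonia by magnetic-activated cell sorting (MACS) for the surface protein THY1, and per the labels a few unselected testis cells were added back. Equal cell numbers from 3 animals were pooled into a single library on a droplet instrument (10x Genomics, v2 chemistry), which counts each captured transcript end once by its unique molecular identifier (UMI). The matching preparation from Zscan2 knockout mice was not analysed here. The sort and the added cells set how many cells of each class were loaded, so the shares above are those of the preparation and not of the testis.

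The library held 11358045 UMIs in all, with 2655, 9115 and 44915 UMIs in the lowest, median and highest barcode. The 106 myoid cells contributed 825156 UMIs, from 2868 to 16926 per cell with a median of 7327.5, and a median of 2282 genes was detected per cell. The other classes chosen by the same rule were 175 stromal cells (median 8349 UMIs), 263 Sertoli cells (8404) and 43 macrophages (12321), beside 327 germ cells (18213) and 10 cells that stayed unassigned. With 1 library there is no replicate, so no difference between classes was tested. Levels are given as CPM, for which all UMIs of a gene in the cells of 1 class were added up and scaled to a total of 1000000 for the class, and every interval is an exact 95% interval that covers counting error only. Where no UMI was counted, the limit given is the level of 3 counts, and a ratio given as at least so many fold uses this level. Such a ratio is not the lower end of an interval, since it leaves out the counting error of the other class. Because the class was chosen on 3 genes of this same contrast, all differences between classes below are descriptions.

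Peritubular myoid cells carry the actin, myosin and calponin machinery of smooth muscle, and their contractions help to move sperm and fluid along the tubule. Together with Sertoli cells they lay down the basement membrane of the tubule, to which spermatogonia also attach. They respond to desert hedgehog from Sertoli cells during development of the testis and are a known source of growth factors for spermatogonial stem cells, GDNF and CSF1 among them.

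The sum that chose the cells was 9 in the lowest myoid cell, 69 in the median cell and 284 in the highest, and Acta2 was detected in all 106. Most members were far from the limits of the rule. In 2 cells the sum was under 10, and in 7 it was less than 2 times the next largest sum. By the ratio of the sums, the members nearest to the boundary had 13 for the myoid genes against 12 for the stromal genes, 33 against 26 and 19 against 13, and the cells just outside, all of them stromal, had 28 against 35, 16 against 21 and 44 against 60. Stromal transcripts were seen in most members, since 91 of the 106 reached a stromal sum of 5, with a median of 10, while the sum of the Sertoli or macrophage genes reached 5 in 3 members. In the other direction, 56 of the 175 stromal cells had a myoid sum of at least 5, with a median of 2 over all stromal cells.

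**Figure D1:**
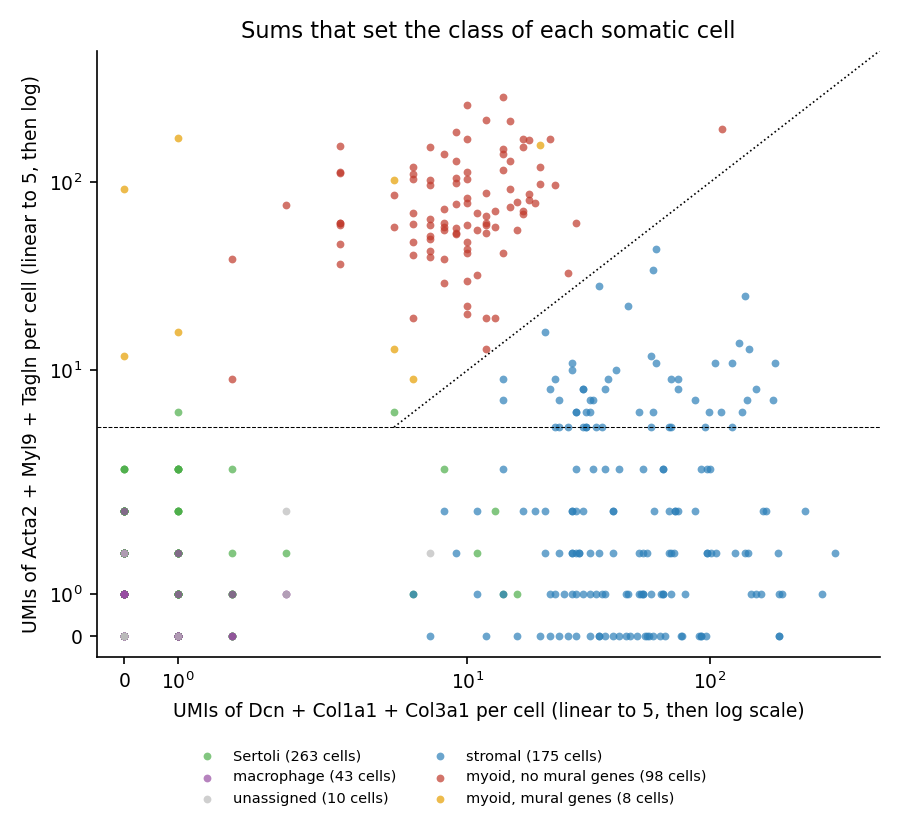
Sums of myoid genes (vertical axis, UMIs per cell) against stromal genes (horizontal axis, UMIs per cell) for each somatic cell, both axes linear to 5 and logarithmic above, with the minimum of 5 as a dashed line and equality as a dotted line. The myoid cells (red and orange) have a median myoid sum of 69, and a few lie close to the line of equality with the stromal cells (blue).

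Another 3 myoid markers that the rule did not use were high in these cells. They were chosen with earlier results of these data known, so their levels describe the cells and are no independent check of the label. Mylk, the kinase that starts smooth muscle contraction by phosphorylating the myosin light chain, stood at 1511 CPM in myoid cells, 103 in stromal cells, 155 in Sertoli cells and 12.2 in germ cells. Col4a4, a chain of basement membrane collagen, stood at 1190, 155, 6.64 and 3.94 in the same order. Mgp, a matrix protein that inhibits calcification, stood at 1670, 346, 11.2 and 6.63. The chosen cells thus carried these 3 markers beside the genes that picked them, with 1 exception in a small subset.

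This exception was a set of 8 of the 106 cells with abundant transcripts of mural cells, the pericytes and smooth muscle cells of blood vessels. The summed UMIs of Rgs5, Higd1b, Ndufa4l2, Cox4i2, Kcnj8 and Abcc9 were 13, 27, 34, 42, 72, 89, 100 and 100 in these 8 cells. In the other 98 cells the sum was never above 2, and it was 0 in 78 of them. These 6 genes and the set of cells were picked after the values had been seen, so the gap between the sets is a description of that choice. The 8 cells lay together in 1 cluster of an unsupervised grouping, where they were joined by 7 macrophages, 6 unassigned cells, 3 germ cells, 1 stromal cell and 1 Sertoli cell, whereas 92 of the other 98 made up a cluster of 95 cells with 2 stromal cells and 1 unassigned, and 6 lay among stromal cells.

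Rgs5, a regulator of G protein signalling known from pericytes, stood at 2517 CPM in the 8 cells and 1.29 in the 98. Pdgfrb, the receptor through which vessels recruit pericytes, stood at 581 against 32.3, and Notch3, a receptor of arterial smooth muscle, at 329 against 25.9. Acta2 was present in both sets, with 1, 1, 4, 6, 34, 50, 76 and 88 UMIs in the 8 cells and between 5 and 180 (median 39.5) in the 98. The matrix markers had lower counts in the 8 cells, where the UMIs of Col4a3, Col4a4 and Mgp together ran from 0 to 8 (median 3), while they ran from 0 to 62 in the 98 (median 25), 7 of which lay within the range of the 8. Col4a3, Cnn1, Ptch1, Pdgfra, Mfap4, Lsp1, C1qtnf3 and Tnnt2 had 0 UMIs in the 8 cells, and for a set of 51648 UMIs a count of 0 allows up to 58.1 CPM, taken as 3 counts. The myoid label thus went with the values of the 98 cells, and the 8 are called below the cells with mural genes. Counts over the gene lists are given for the class and, where they differ, for the 98 cells.

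**Figure D2:**
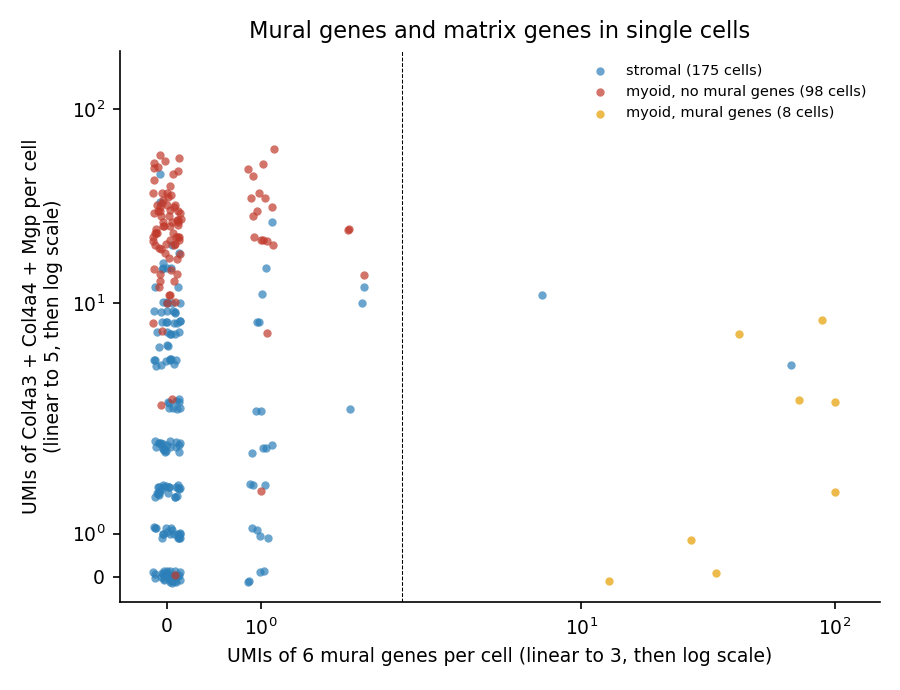
UMIs of the 6 mural genes per cell (horizontal axis) against UMIs of Col4a3, Col4a4 and Mgp together (vertical axis), with axes linear near 0 and logarithmic above and points jittered slightly. The 8 cells with mural genes (orange) have mural sums of 13 to 100 and matrix sums of 8 or less, and the other 98 myoid cells (red) have mural sums of 2 or less.

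Contractile genes had the highest median ratio over stromal cells among the 13 gene lists examined. Of 31 contractile genes beside those of the rule, 30 reached the minimum of 20 UMIs in myoid and stromal cells together, and 23 of these were at least 2-fold higher in myoid cells, 2 were at least 2-fold lower and 5 lay between, with a median log2 ratio of 2.02. In the 98 cells the counts were the same and the median was 2.05. Over all 8209 genes that reached this minimum, 7.33% were at least 2-fold higher in myoid than in stromal cells and 8.28% were at least 2-fold lower, with a median of -0.04, and for the 98 cells the shares over 8115 genes were 6.65% and 9.23%. Against Sertoli cells 23 of 30 contractile genes were at least 2-fold higher and 1 was lower, with a median of 3.91, where the figures over all 9721 genes were 11.0% higher, 29.2% lower and a median of -0.45. The rule selected cells for this kind of gene, so these counts describe the choice and support nothing further.

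Myh11, the heavy chain of smooth muscle myosin, was detected at 0, 3 and 18 UMIs in the lowest, median and highest of the 98 cells and at no more than 2 in any stromal cell. Its level was 464 CPM in the class, 7.23 in stromal cells and 1.66 in Sertoli cells, a log2 ratio over stromal cells of 6.00 (5.15 to 7.02). Cnn1, calponin, which binds actin and slows the myosin motor, had 155 UMIs in myoid cells and 0 in stromal cells, so its level of 188 CPM was at least 95.3-fold higher when the stromal count is set at 3. Its median over the 98 cells was nevertheless 0 and its highest count 14, so that it was not seen in most members at this depth. Actg2, the enteric form of smooth muscle actin, had 97 UMIs against 0 and was at least 59.6-fold higher. The actin genes have nearly identical coding sequences, so the counts of Actg2 are uncertain to the extent that reads of other actin genes were assigned to it. Stromal cells, without a UMI of Actg2, had medians of 9 UMIs of Actg1, 6 of Actb and 0 of Acta2. The assignment of reads was not tested.

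Tpm1, a tropomyosin that lies along the thin filament, ran from 1 to 40 UMIs in the 98 cells (median 11) and from 0 to 17 in stromal cells (median 2), so that the ranges overlapped while the medians did not lie close. Its log2 ratio was 2.40 (2.25 to 2.56), and that of Tpm2 was 3.08 (2.84 to 3.33). Lmod1, which nucleates actin filaments in smooth muscle, stood at 213 CPM against 20.4 in stromal cells. Ppp1r12b, a targeting subunit of myosin phosphatase, had a log2 ratio of 3.56 (2.79 to 4.42), whereas Ppp1r14a, an inhibitor of this phosphatase, stood at 322 CPM in myoid and 231 in stromal cells. The cells with mural genes held 70 of its 266 UMIs, a level of 1355, against 253 in the 98. Vim, the intermediate filament protein of mesenchymal cells, was at 662 CPM in myoid and 1881 in stromal cells, a log2 ratio of -1.51 (-1.64 to -1.38), and Des, the muscle intermediate filament, was at 65.4 and 58.5.

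**Figure D3:**
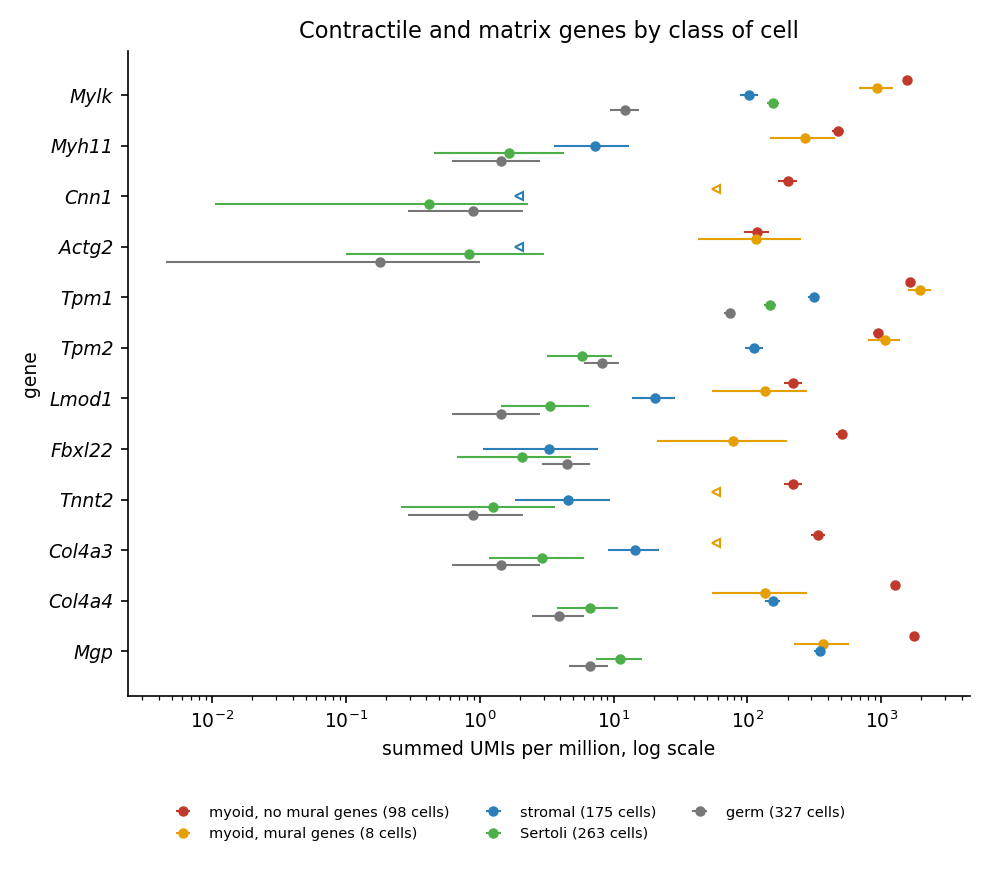
Levels of contractile and matrix genes (horizontal axis, CPM on a log scale) in 5 sets of cells, with exact Poisson 95% intervals as bars and open triangles at the level of 3 counts where no UMI was counted. Mylk, Myh11 and Tpm1 are high in both myoid sets, whereas Col4a3, Col4a4 and Mgp are high in the 98 cells without mural genes (red).

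Serum response factor (SRF) drives smooth muscle genes through a DNA element called the CArG box, and 4 promoters with such a box or a near match are shown, those of the rule genes Acta2 and Myl9, of the contractile gene Cnn2 and of Fbxl22, which had the highest ratio over stromal cells among the genes outside the lists. Sequences are from RefSeq on build GRCm38.p6, read 5′ to 3′ on the strand of the gene, with the boxes in capitals. Acta2 lies at chr19:34255378-34255477 on the minus strand, and both of its elements have 1 inner base that is C or G in place of A or T. Myl9 (chr2:156775283-156775332, plus strand), Cnn2 (chr10:79988524-79988573, plus strand) and Fbxl22 (chr9:66514786-66514835, minus strand) hold exact boxes.
Acta2: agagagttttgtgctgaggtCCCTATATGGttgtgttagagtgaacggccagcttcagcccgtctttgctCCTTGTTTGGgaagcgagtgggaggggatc
Myl9: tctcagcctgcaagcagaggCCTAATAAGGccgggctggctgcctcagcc
Cnn2: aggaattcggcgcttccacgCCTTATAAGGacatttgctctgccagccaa
Fbxl22: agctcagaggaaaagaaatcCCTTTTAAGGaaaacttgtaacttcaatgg

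The elements of Acta2 began 84 and 34 bases before the start site of the promoter entry, that of Myl9 at 161, that of Cnn2 at 56 and that of Fbxl22 at 222. These start sites can differ from the outer gene ends. The printed stretch of Acta2 lies within the gene's full span, chr19:34241090-34255590. In the 250 bases before the start, an exact CArG box on either strand was held by 5 of the 30 contractile and rule genes with a promoter entry (16.7%), which were Fhl2, Myl9, Cnn2, Myl6 and Fhl1. Over all 27025 genes with an entry the share was 1.62%. Of the 15 genes named below as highest over stromal cells, 9 had an entry, and 1 of these, Fbxl22, held an exact box. A near match with 1 inner C or G was searched for after the Acta2 promoter had been read, and it was held by 4 of the 30 (13.3%) and by 8.33% of all genes, with Myl9 in both counts. The sequence CATTCC, the MCAT site bound by TEAD factors, was present on either strand in 11 of the 30 (36.7%) and in 14.4% of all genes. Tagln, Myh11, Actg2 and Csrp2 had no entry. A match of letters is not evidence that a factor bound there.

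Of 22 genes for calcium, potassium and cyclic GMP signalling, 13 reached the minimum, 3 were at least 2-fold higher than in stromal cells and none was lower, with a median of 0.32. The shares of all genes were 7.33% higher and 8.28% lower. In the 98 cells 1 of 12 was higher, beside 6.65% of all genes, and the median was 0.04. Gucy1b3, a subunit of the nitric oxide receptor guanylate cyclase, was among the 3, and it stood at 194 CPM in the cells with mural genes and 9.05 in the 98. Pde5a, which degrades cyclic GMP, had a log2 ratio of 1.83 (1.11 to 2.57).

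Of 21 receptors for agonists of contraction, 11 reached the minimum, 2 were at least 2-fold higher and 2 lower (3 in the 98 cells). The shares of all genes were 7.33% higher and 8.28% lower (6.65% and 9.23% for the 98 cells). Ednra, the endothelin receptor of smooth muscle, was at 195 CPM in myoid cells, 150 in stromal cells and 1.25 in Sertoli cells, with 0, 1 and 7 UMIs in the lowest, median and highest of the 98 cells. Ednrb, a further endothelin receptor, had 27 UMIs in myoid cells and 0 in both stromal and Sertoli cells, and was at least 16.6-fold higher than in stromal cells. It was not particular to myoid cells, since it was counted in 24 of 43 macrophages, beside 19 of the 106 myoid cells. F2r, the thrombin receptor, had a log2 ratio of 2.39 (0.97 to 4.02) on 17 UMIs. Agtr2, an angiotensin receptor, was lower, at 4.85 CPM against 47.3 in stromal cells. No UMI of Adra1a, Adra1b, P2rx2, Ptger4 or Ptgfr was counted in the class, which allows up to 3.64 CPM for each.

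Basement membrane genes lay on both sides of the stromal level, with the collagen IV chains Col4a3 and Col4a4 furthest above it. Of 25 genes 20 reached the minimum, 5 were at least 2-fold higher and 2 lower (3 in the 98 cells), and the median log2 ratio was 0.22. Among all genes 7.33% were higher and 8.28% lower (6.65% and 9.23% for the 98 cells). Against Sertoli cells 16 of 21 were at least 2-fold higher and 2 lower, beside 11.0% and 29.2% of all genes. Col4a3 was at 0, 2 and 16 UMIs in the lowest, median and highest of the 98 cells and at most 3 in a stromal cell, with a log2 ratio of 4.45 (3.82 to 5.15). Col4a4 was at 0, 9 and 28 UMIs in the 98 cells and 0, 1 and 10 in stromal cells, with a log2 ratio of 2.94 (2.73 to 3.15). These 2 chains, which assemble with Col4a5 in specialized basement membranes, are encoded head to head on chromosome 1, Col4a4 on the minus strand at chr1:82448423-82586849 and Col4a3 on the plus strand at chr1:82586921-82722059, with 71 bases between them (mm10).

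The common chains Col4a1 and Col4a2 were higher by log2 ratios of 1.59 (1.40 to 1.78) and 1.41 (1.22 to 1.61), and both were higher still in the cells with mural genes, at 1743 and 1684 CPM against 632 and 583 in the 98. Col4a4 was at 136 CPM in the 8 cells, near its stromal level, and at 1260 in the 98, so the collagen IV chains differed in direction between the sets. Lamc3, a laminin chain, stood at 164 CPM in the class, 63.7 in stromal cells and 1.66 in Sertoli cells. Sparc, a collagen-binding matrix protein, was close to equal at 3161 and 3250 in myoid and stromal cells. Nid2, which links laminin to collagen IV, and Smoc2 were lower, with log2 ratios of -2.02 (-2.98 to -1.18) and -1.26 (-1.48 to -1.05).

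Genes of the interstitial matrix were shared with stromal cells rather than with Sertoli cells. Of 37 genes 34 reached the minimum against stromal cells, where 6 were at least 2-fold higher, 4 lower and 24 between (median -0.21). In the 98 cells 6 were lower. The shares of all genes were 7.33% higher and 8.28% lower (6.65% and 9.23% for the 98 cells). Against Sertoli cells 29 of 31 were at least 2-fold higher in the class, beside 11.0% of all genes. Matrix genes above the stromal level included proteins of elastic fibers and the control of matrix breakdown. Eln, elastin, stood at 650 CPM against 133 in stromal cells, Timp3, an inhibitor of metalloproteases, at 310 against 42.7, and Lox, which crosslinks elastin and collagen, at 42.4 against 15.8. Mgp had a log2 ratio of 2.27 (2.12 to 2.42). Those below it were Mfap5 at 10.9 against 209, Efemp1 at 8.48 against 121, Lum at 6.06 against 55.9 and Col5a2 at 37.6 against 135. Mfap4, a microfibril protein, was at 1657 CPM in the 98 cells and 1454 in stromal cells, and no UMI of it was counted in the 8 cells with mural genes.

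Of 36 adhesion genes 26 reached the minimum, and 10 of them (9 in the 98 cells) were at least 2-fold above stromal cells and none below (median 0.59). For all genes the shares were 7.33% above and 8.28% below (6.65% and 9.23% for the 98 cells). Integrin chains that pair with Itgb1 were among the 10 higher genes. Itga8, a receptor for nephronectin, had 26 UMIs in myoid cells and 0 in stromal cells and was at least 16-fold higher, all of its UMIs lying in the 98 cells. Itga7, a laminin receptor of muscle, had a log2 ratio of 3.26 (1.86 to 5.0). Itga1, a collagen receptor, had 17 UMIs and stayed under the minimum, and it stood at 232 CPM in the cells with mural genes and 6.46 in the 98. Vcl and Tln1, which tie integrins to actin, had log2 ratios of 2.53 (1.98 to 3.12) and 1.32 (0.99 to 1.65), and Cdh11, a cadherin of mesenchymal cells, 2.13 (1.63 to 2.65).

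**Figure D4:**
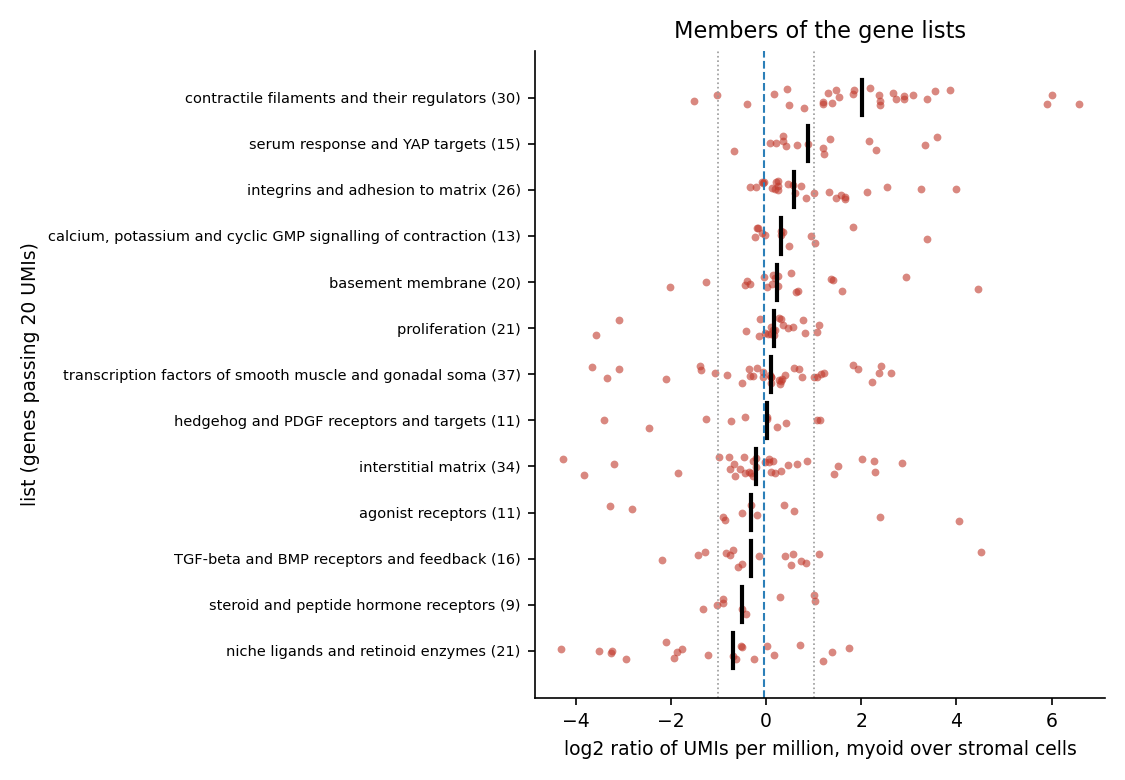
Log2 ratios of levels in myoid over stromal cells (horizontal axis) for the members of 13 gene lists that reached 20 UMIs, 1 point per gene, with black bars at list medians, the median of all genes (-0.04) as a dashed line and 2-fold limits as dotted lines. The contractile list has the highest median (2.02) and the list of niche ligands and retinoid enzymes the lowest (-0.70).

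More ligands of the spermatogonial niche were lower than higher against stromal cells. Of 36 ligands and retinoid genes 21 reached the minimum, of which 3 were at least 2-fold higher, 10 lower and 8 between, beside 7.33% higher and 8.28% lower over all genes. The median was -0.70 (-0.61 for the 98 cells). Gdnf, the growth factor that maintains spermatogonial stem cells, was counted with 13 UMIs in myoid cells, 0 in stromal cells and 58 in Sertoli cells, which gave 15.8 CPM in the class and 24.1 in Sertoli cells. With so few counts it did not reach the minimum, and no cell held more than 3 of its UMIs. Csf1, a cytokine that acts on macrophages and on spermatogonia, was at 10.9 CPM in myoid, 17.7 in stromal and 1.66 in Sertoli cells, and the interval of its log2 ratio to stromal cells, -1.98 to 0.43, held equality.

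The chemokine and growth factor genes of the niche had clearer differences. Cxcl12, whose protein attracts cells that bear CXCR4, was at 88.5 CPM in myoid and 680 in stromal cells, with a median of 0 UMIs in the 98 cells and 4 in stromal cells. Igf1 stood at 159 against 540, and Inhba, the subunit of activin A, at 23.0 against 455. Macrophages also carried Igf1, at a median of 10 UMIs per cell against 3 in stromal cells. Kitl, the ligand for the KIT receptor of differentiating spermatogonia, stood at 10.9 in myoid, 40.1 in stromal and 195 in Sertoli cells, and Wnt6 at 25.4, 243 and 469. Bmp4 was higher than in stromal cells, with a log2 ratio of 1.38 (0.42 to 2.37) on 24 UMIs. Pdgfa, a ligand of PDGF receptors, had a ratio of 1.75 (0.99 to 2.55), and stood at 232 CPM in the cells with mural genes and 38.8 in the 98. No UMI of Nrg1, Wnt2, Rspo3, Bmp2 or Fst was counted in the class.

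Retinoic acid is the signal that starts differentiation of spermatogonia, and its enzymes were lower in myoid cells than in another somatic class. Cyp26b1, which breaks it down, was at 156 CPM in myoid, 367 in stromal and 19.5 in Sertoli cells. Aldh1a1, which makes it, was at 128, 183 and 738.

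**Figure D5:**
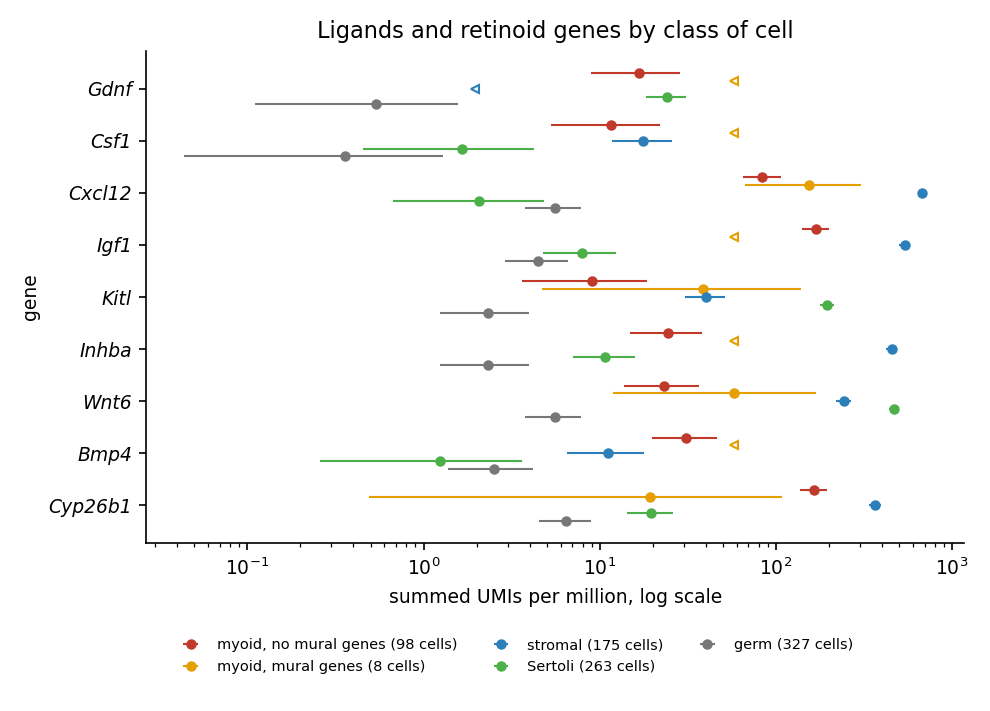
Levels of ligands and retinoid genes (horizontal axis, CPM on a log scale) in 5 sets of cells, with exact Poisson 95% intervals as bars and open triangles at the level of 3 counts where no UMI was counted. Cxcl12, Igf1 and Inhba are higher in stromal cells (blue) than in myoid and Sertoli cells, and Kitl and Wnt6 are highest in Sertoli cells (green).

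Receptors and targets of hedgehog signalling were present at levels near those of stromal cells. Ptch1, the hedgehog receptor and a target of the pathway, was at 0, 2 and 8 UMIs in the lowest, median and highest of the 98 cells and at 0, 1 and 9 in stromal cells. Its level was 242 CPM in myoid, 182 in stromal and 40.7 in Sertoli cells, and the targets Gli1 and Hhip stood at 31.5 and 43.6 in myoid cells, 30.9 and 42.7 in stromal cells and 1.25 each in Sertoli cells. Dhh, the ligand, was at 206 CPM in Sertoli cells and 4.85 in myoid cells. The coreceptors Gas1 and Cdon were lower than in stromal cells, at 9.70 against 53.2 and 3.64 against 38.8, and Cdon rested on 3 UMIs. Of the 13 genes listed for hedgehog and PDGF signalling 11 reached the minimum, and 2 were at least 2-fold higher (1 in the 98 cells) and 3 lower. Among all genes 7.33% were higher and 8.28% lower (6.65% and 9.23% for the 98 cells).

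Of the PDGF receptors, Pdgfrb depended on the cells with mural genes and Pdgfra did not. Over the whole class Pdgfrb was above stromal cells with a log2 ratio of 1.14 (0.55 to 1.74), and in the 98 cells alone the ratio was 0.10. Pdgfra was at 221 CPM in the class and 365 in stromal cells, with 0, 1 and 7 UMIs in the 98 cells, 0 in all 8 cells with mural genes and 0, 3 and 10 in stromal cells.

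Hormone receptors were counted at low levels. Esr1, an estrogen receptor, was lower than in stromal cells, with a log2 ratio of -1.33 (-2.64 to -0.20). No UMI of Esr2, Pgr, Fshr or Rxfp2 was counted. In all, 9 of 17 receptors reached the minimum, 2 of them at least 2-fold higher and 2 lower. Of 24 genes for TGF-beta and BMP signalling 16 reached it (15 in the 98 cells), 2 higher and 3 lower, beside the same 7.33% and 8.28% of all genes. Ltbp2, a protein of the family that stores TGF-beta, had 37 UMIs in myoid cells and 0 in stromal and Sertoli cells, at least 22.7-fold above the former. The BMP targets Id1 and Id2 were lower, with log2 ratios of -1.27 (-1.61 to -0.95) and -2.18 (-2.67 to -1.72).

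Several transcription factors known from smooth muscle were higher in the class than in stromal cells, while others were lower. Of 46 factors 37 reached the minimum, 9 at least 2-fold higher (10 in the 98 cells), 7 lower and 21 between, with a median of 0.11. The matching shares of all genes were 7.33% higher and 8.28% lower (6.65% and 9.23% for the 98 cells). Myocd, the coactivator of SRF in smooth muscle, had 15 UMIs in myoid cells and 1 in stromal cells, a log2 ratio of 4.79 with a counting interval of 2.09 to 10.19, so it stayed under the minimum, and it was never counted more than once in a cell. Srf itself had a ratio of 1.93 (1.0 to 2.93), Mef2c, a myogenic factor, 2.41 (2.02 to 2.81), and Heyl, a target of Notch, 2.62 (2.09 to 3.19). Mef2c was at 968 CPM in the cells with mural genes and 211 in the 98. Tcf21, a factor of gonadal mesenchyme, was at 354 CPM in myoid, 169 in stromal and 2.08 in Sertoli cells. Osr1, Klf4 and Maf were lower than in stromal cells, with log2 ratios of -3.35 (-4.07 to -2.70), -3.66 (-5.0 to -2.58) and -2.10 (-2.65 to -1.59). Nr2f2, known from the interstitium, was at 421 CPM in myoid cells and 334 in stromal cells.

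Targets of SRF and of YAP, a coactivator that responds to tension in the cell, were in part higher. Of 18 genes 15 reached the minimum, and 7 were at least 2-fold higher than in stromal cells and none lower, with a median of 0.89. Among all genes 7.33% were higher and 8.28% lower. Cyr61 and Ctgf, matricellular targets of YAP, stood at 390 and 147 CPM against 32.2 and 14.5 in stromal cells. Junb, Egr1 and Ier2 are in this list and are also known to be induced when tissue is dissociated. Of 17 genes of dissociation stress that reached the minimum, 8 were at least 2-fold higher than in stromal cells and 1 lower, beside 7.33% and 8.28% of all genes. The summed level of the listed stress genes was 3592 CPM in myoid, 1667 in stromal and 2890 in Sertoli cells. The part of dissociation in these levels was not tested.

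Among genes outside the lists ordered by role above, those that stood highest over stromal cells were led by Fbxl22, an F-box protein of the sarcomere. It was counted at 0, 3 and 17 UMIs in the lowest, median and highest of the 98 cells and at no more than 1 in any stromal or Sertoli cell, and its log2 ratio over stromal cells was 7.19 (5.96 to 8.82). The next were Tnnt2, the troponin T of the heart, at 205 CPM against 4.6, Cdh3 at 75.1 and Dner at 71.5, each against 1 UMI in stromal cells. They were followed by Sh3bgr at 159 against 3.94, C1qtnf3 at 325 against 13.1, Nexn, an actin-binding protein, at 229 against 9.86, and Mir143hg, the host transcript of microRNAs of smooth muscle, at 235 against 11.2. The remaining 7 of the 15 were Sytl2, Tmem204, Msrb3, Etv1, Btg2, Rbp4 and Nnat, of which Btg2 is also in the list of dissociation stress. Several of these belong to striated or smooth muscle by their known roles, and Tnnt2, C1qtnf3, Dner, Rbp4 and Nnat were not counted in the cells with mural genes.

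Over Sertoli cells the highest were Mir143hg, Fbxl22, Asb2, Lsp1, Fgl2, Casq2, Clmp, S100a6, C1qtnf3, H19, Tmem119, Pdlim1, Tnnt2, Vgll3 and Ptgis. Casq2, the calcium store protein of the sarcoplasmic reticulum, was at 256 CPM in myoid, 55.9 in stromal and 1.25 in Sertoli cells. Ptgis, which makes prostacyclin, was at 315, 51.9 and 2.91, and Asb2, part of a ubiquitin ligase that degrades filamins, at 198, 40.7 and 0.415. S100a6 was high in both mesenchymal classes, at 840 and 995 in myoid and stromal cells against 7.89 in Sertoli cells.

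The genes lowest against stromal cells included Clec3b, Dlk1, S100b, Dpt, Tppp3, Prlr, 2900055J20Rik, Vcam1, Meg3, Adam12, Penk, Aqp2, Sbspon and Zim1. Dlk1, an inhibitor of differentiation that is imprinted together with Meg3, was counted at a median of 0 and a maximum of 15 UMIs in the 98 cells and at a median of 41 and a maximum of 257 in stromal cells. Its level was 93.3 CPM against 5821, a log2 ratio of -5.96 (-6.31 to -5.64). Meg3 was at 888 CPM in myoid, 7272 in stromal and 83.9 in Sertoli cells, so that it stayed above the level of Sertoli cells. Clec3b and Dpt, a pair of matrix-associated proteins, had 1 UMI each in myoid cells and 598 and 212 in stromal cells. Prlr, the prolactin receptor, had 6 UMIs against 253.

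Counts thinned to 2500 UMIs per cell, a depth that every barcode reached, showed which genes varied most among the 106 cells. Over 633 genes with a mean of at least 0.5 the median ratio of variance to mean was 1.18, close to the value of 1 that counting alone gives. Without rule, ribosomal and mitochondrial genes, the 10 most variable were Malat1 (14.7), Crip1 (10.4), Ndufa4l2 (8.11), Hmgb2 (6.48), Actb (6.15), H19 (5.92), H2afz (4.75), Stmn1 (4.67), Tmsb10 (4.40) and Col1a2 (4.14). The rule gene Acta2 was at 7.71. The values of Crip1 and Ndufa4l2 rested on the cells with mural genes, where Crip1 was at 3872 CPM against 19.4 in the 98, and they were 2.48 and 1.0 in the 98 alone. That of Tmsb10 was 1.82 in the 98. Hmgb2, H2afz and Stmn1 are known to follow the cell cycle, and their spread in the 98 cells alone was close to that in the class, at 5.69, 4.77 and 4.68.

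Transcripts of mitosis were concentrated in few cells of the class. The UMIs of 9 genes of mitosis (Mki67, Top2a, Ccnb1, Ccnb2, Ccna2, Cdk1, Birc5, Ube2c and Cenpf) reached 5 in 13 of the 98 cells (13.3%, exact binomial interval 7.26 to 21.6), which held 300 of the 347 UMIs, and they were at 0 in 57 cells. The matching shares were 6.29% of stromal cells, 23.6% of Sertoli cells and 27.9% of macrophages. After thinning to 2500 UMIs, with a minimum of 3, the shares were 12.2% for the 98 cells, 6.29% for stromal cells, 19.8% for Sertoli cells and 20.9% for macrophages. Of 23 proliferation genes 21 reached the minimum, and 2 were at least 2-fold higher than in stromal cells (1 in the 98 cells) and 2 lower, shares near the 7.33% and 8.28% of all genes. The 2 lower ones were the inhibitors of cyclin-dependent kinases Cdkn1c, at 41.2 CPM against 350, and Cdkn1a, with 1 UMI against 22.

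Markers of other cell types were summed to show what else the class could hold. The 17 genes of vascular smooth muscle and pericytes, of which Rergl was at 0, summed to 1240 CPM in the class and 1602 in stromal cells. Their sum was 513 in the 98 cells, where Ebf1, which stromal cells also carry, was most abundant at 244, and 12121 in the 8. For endothelium the 13 genes summed to 179 CPM in both myoid and stromal cells, but the genes behind the sums differed. Ecscr led in myoid cells at 115 CPM and was detected in 51.9% of them and in 5.71% of stromal cells. Cdh5 was detected in 13.2% of myoid and 64% of stromal cells. In the class Tie1, Flt1, Cldn5 and Robo4 were at 0. The 12 Leydig cell genes summed to 153 in myoid, 319 in stromal and 623 in Sertoli cells, with Insl3, Hsd3b6 and Cyp11b1 at 0 in the class. In the Sertoli class some of these genes were counted in few cells, such as Cyp11a1 in 9 of 263 with up to 134 UMIs. Others were counted in many, such as Fdx1 in 137. The 16 other genes of stroma summed to 4379 against 6616 in stromal cells, led by Col1a2, with Ly6a and C3 at 0.

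The 21 Sertoli cell genes summed to 544 CPM in myoid cells, 800 in stromal cells, 252 in germ cells and 11884 in Sertoli cells, led in the class by Ctsl at 229, with Gata1, Fshr and Tsx at 0. The 16 macrophage genes summed to 30.3 against 22984 in macrophages, with Csf1r, Adgre1, Cd14, Aif1, Laptm5, Cd74 and H2-Aa at 0. The 14 lymphocyte genes summed to 12.1 with 12 at 0, and Thy1, which encodes the protein used for the sort, made up 6.06 of this on 5 UMIs. The 16 germ cell genes, 6 of them at 0 in the class, summed to 49.7 in myoid, 51.9 in stromal and 47.8 in Sertoli cells against 1306 in germ cells, and the 6 red blood cell genes to 92.1, 90.7, 90.1 and 97.7 in the same order. The 7 genes of the rete and epithelium had 1 UMI in all, and Wt1 was the only gene counted of the 8 for mesothelium, at 10.9 CPM.

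Free RNA in droplets gives a low level of detection in cells that lack a gene, and the germ cells served as the measure of it. Acta2 was detected in 22.9% of germ cells (median depth 18213 UMIs) and in 14.4% of Sertoli cells, and after thinning to 2500 UMIs in 3.36% and 4.94%, against 99.1% of the 106 myoid cells. Mylk was detected in 98% of the 98 cells without mural genes, 53.7% of stromal, 66.9% of Sertoli and 19.0% of germ cells, and after thinning in 89.8%, 20.6%, 30.8% and 3.06%. Levels of single genes in myoid cells that lie near those in germ cells, as for Dhh (4.85 CPM against 1.61), are thus not read as expression. Rbp4, named above, stood at 65.4 CPM in myoid, 54.5 in germ and 3.94 in stromal cells, with 0 UMIs in Sertoli cells and macrophages. It was detected in 51.7% of germ cells and 28.3% of myoid cells, so germ cells give no measure of free RNA for this gene. The part of free RNA in its level was not tested.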

How the data were processed

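Expression was measured in 1 wild type library. The authors deposited whole-number UMI counts per gene and barcode, made with Cell Ranger 2.1.0 on build mm10 per the labels and submitters' notes, which also name Seurat. The table listed 27998 genes, 18722 with a UMI, and 970 barcodes. Of these, 10 had under 500 genes and 36 had 10% or more mitochondrial counts. The members, gene lists and the rule were chosen with earlier results of these data known, so they are not independent evidence.

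Counts were summed per class with Python 3.11.15, numpy 2.4.6, scipy 1.17.1 and pandas 2.3.3. Counts of genes and list medians used genes with at least 20 UMIs in a pair of classes. Ratios had exact conditional binomial intervals, levels had exact Poisson intervals and shares had exact Clopper-Pearson intervals, all at 95%. A count of 0 was set at 3 for ratios. Where both counts were at or under 3, no ratio was given. Clusters came from Seurat 5.3.0 in R 4.3.3 (14 principal components, resolution 0.5). No doublet caller was applied, and scrublet (scanpy 1.11.5) was run as an alternative. The classes and intervals were checked on simulated data.

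Genes were named from the lists (505 genes, 501 matched), as the 15 outside them with the highest lower bound over stromal or Sertoli cells among genes in at least 25% of myoid cells, as the 15 with the lowest upper bound against stromal cells among genes in at least 25% of those, and as the 10 most variable, without rule, ribosomal and mitochondrial genes. Mural genes, the mitotic minimum and the near CArG search were chosen after the values had been seen. Gene positions are those of mm10. No test was run, since the mice were pooled and cells of 1 library are not replicates. In all 19 alternatives were planned and 1, leaving out the cells with mural genes, was added after seeing the data. A few genes of the lists and of the naming rule are not reported here.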

Additional observations from a re-analysis of the deposited data

How the results depend on the processing

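No paired analysis was possible because the mice were pooled into a single sample. The 20 settings were run for the counts, the list medians and a part of the gene ratios printed, not for every gene named. Among the ratios that were run, none whose interval excluded 0 changed sign. The medians of 5 lists did, those of basement membrane (-0.01 to 0.27), calcium and cyclic GMP (-0.05 to 0.43), hedgehog and PDGF (-0.32 to 0.12), proliferation (-0.21 to 0.24) and TGF-beta and BMP signalling (-1.07 to 0.03). The number of myoid cells ran from 33 to 107. It was 33 when the 73 cells with 3 or more UMIs of the vascular list were left out, since that list holds genes such as Ebf1 and Heyl that most members carry, and it was 95 by clusters, 92 of them shared with the rule. Scrublet called 4 of 924 cells, 1 of them myoid, which is too few to show that it worked. Genes at least 2-fold higher than in stromal cells numbered 310 with thinned counts, 938 with a minimum of 10 UMIs, 286 with 50 and 196 at a 4-fold limit, and genes lower numbered 398, 1045, 306 and 180 in the same order. Without the cells with mural genes they were 540 and 749. Against Sertoli cells, genes higher numbered 595 with thinned counts, 612 with a minimum of 50 UMIs and 644 at 4-fold, and genes lower 1765 with thinned counts, 1047 at 4-fold and 1538 with a mitochondrial limit of 5%. The contractile list kept a median between 1.90 and 2.19. The niche list reached -1.76 with a minimum of 50 UMIs, and the TGF-beta list -1.07 with thinned counts, in both of which fewer genes were left. The level of the vascular list in the class was 1105 CPM with a myoid sum of at least 10, 1134 with the sum at least 2 times the next largest, 510 by clusters, 1370 with thinned counts, 1944 without mitochondrial and ribosomal genes in the denominator, 169 without the cells that carry the list and 513 without the cells with mural genes. Pdgfrb fell to a ratio of 0.10 in the last setting. The depth limits genes with few counts, such as Gdnf (13 UMIs), Myocd (15) and F2r (17).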

Other observations

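Some imprinted transcripts, picked after their values had been seen, differed between the mesenchymal classes. H19, a maternally expressed noncoding RNA, was at 1183 CPM in myoid cells, 365 in stromal cells and 12.5 in Sertoli cells, with 0, 4 and 63 UMIs in the lowest, median and highest of the 98 cells without mural genes. Its neighbour Igf2 was at 88.5 CPM in myoid and 106 in stromal cells. Nnat was higher than in stromal cells, with a log2 ratio of 3.43 (2.80 to 4.12), whereas Dlk1, Meg3 and Cdkn1c were lower, as given above.

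Sct, which encodes the peptide hormone secretin, was counted at 436 CPM in myoid cells, 545 in stromal cells, 24.9 in Sertoli cells and 3.94 in germ cells. All but 1 of its 360 UMIs in the class lay in the 98 cells without mural genes. Tppp3 was at 213 CPM in the cells with mural genes, 12.9 in the 98 and 442 in stromal cells. Tinagl1, Emid1 and Tm4sf1 were at 949, 407 and 736 CPM in the cells with mural genes and at 1.29, 0 and 1.29 in the 98. Among stromal cells, 2 also carried at least 3 UMIs of the 6 mural genes, with sums of 7 and 67. The latter lay within the range of the 8 cells and had a myoid sum of 9 against a stromal sum of 14.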
